A study of Mus musculus with 12 samples.

Results

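The transcription factors that establish and maintain the macrophage lineage were followed in M2-like mouse bone marrow-derived macrophages (BMDM) exposed to interferon-β (IFNβ). The members were the rows of the unnormalized count matrix whose symbols are Spi1, Cebpa, Cebpb, Maf, Mitf, Tfec, Klf2, Klf4 and Klf6, which makes 9 of 56748 genes. Bone marrow of C57BL/6J mice, 3 mice per condition, was differentiated with 20 ng/mL M-CSF, polarized with 10 ng/mL IL-4 for 48 hours and then cultured for 72 hours in 1 of 4 media, and total RNA was sequenced from 3 libraries per condition. The control medium carried no supplement. The eGFP supernatant came from YUMM5.2 melanoma cells, a mouse line driven by Braf activation and p53 inactivation, that carried a doxycycline-inducible eGFP vector. The Ifnb1eGFP supernatant came from the same line with Ifnb1 and eGFP in the vector and was diluted to 1500 pg/mL of IFNβ. Both tumor cell populations had received 1 µg/mL doxycycline for 72 hours, so both supernatants could carry doxycycline and tumor cell products. The dilution ratio of the Ifnb1eGFP supernatant was also used for that of the eGFP cells. Recombinant IFNβ was given in BMDM medium at 1500 pg/mL. IFNβ from the tumor cells was therefore read as Ifnb1eGFP against eGFP supernatant, and IFNβ alone as recombinant IFNβ against control, and these comparisons share no library, although all conditions shared 1 estimate of the spread. No genetic change to the macrophages is given in the labels, and the study's methods describe its mice as wild-type females bought as young adults, without giving separately the age of those that gave bone marrow.

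PU.1, the product of Spi1, is the ETS factor without which macrophages do not form, and it opens the enhancers that other factors then use. C/EBPα and C/EBPβ work beside it in myeloid progenitors and in mature or activated macrophages. c-MAF (Maf) is a large MAF factor of differentiated macrophages, MITF and TFEC belong to the MiT/TFE family that binds E-boxes in lysosomal and osteoclast genes, and KLF2, KLF4 and KLF6 are zinc finger factors that set the balance of inflammatory and alternative gene expression. IL-4 is known to induce Klf4 and Tfec in macrophages. Type I interferon induces many of its target genes through the interferon-stimulated response element (ISRE) in their promoters.

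The libraries held between 31526004 and 45348410 gene counts, and each member was counted between 87 and 22219 times per library, so all 9 members passed the low-count filter that kept 15033 genes. The interferon-induced genes Irf7, Isg15 and Ifit2 separated the 6 libraries with IFNβ from the 6 without, but eGFP supernatant replicate 2 stood apart from the other unexposed libraries, with Irf7 at 45.2 counts per 1000000 (CPM) against at most 11.3, Isg15 at 33.9 against at most 8.27 and Ifit2 at 139 against at most 21.1. All 7 macrophage markers were tested, with a summed level of 14337 to 18738 CPM without IFNβ and 8686 to 9426 CPM with it. Lyz2 made up most of the sum without IFNβ. Lyz2, Itgam and Cd14 were among the markers that fell, whereas Csf1r differed little and Mertk was higher with IFNβ. The 6 melanoma markers summed to 0.223 to 0.81 CPM, with Tyrp1 at 0 in every library, and the 4 T cell markers to at most 0.0506 CPM, the 4 B cell markers to at most 0.712 CPM and the 4 mast cell markers, with Mcpt4 and Tpsb2 at 0, to at most 0.985 CPM. The 4 fibroblast markers lay between 27.6 and 77.6 CPM in all conditions. The sum of the osteoclast markers moved with IFNβ, from 120 to 152 CPM without it to 26.4 to 36 CPM with it (6 markers, Calcr at 0). The sum of the 6 neutrophil and granulocyte precursor markers went from 4.28 to 5.72 CPM to 0.208 to 0.985 CPM. That of the 4 dendritic cell markers went from 1.22 to 1.61 CPM to 0.273 to 0.43 CPM. In each of these last 2 lists only 1 marker passed the low-count filter. In all libraries 5 of the 6 neutrophil and granulocyte precursor markers and 3 of the 4 dendritic cell markers were under 1 CPM, so these sums do not describe whole lists. The part of these cell types in the results was not tested, and in bulk RNA fewer cells of a type and less RNA per cell cannot be told apart. The 3 Ifnb1eGFP libraries also differed among themselves with base composition: across genes, the deviation of replicate 1 from its condition had a Spearman correlation of -0.598 with GC content and that of replicate 2 one of 0.585, against -0.237 to 0.284 in the libraries of the other conditions.

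IFNβ changed 6 of the 9 factors, and the same 6 in both comparisons. Maf, Tfec and Klf6 were higher, and Cebpa, Mitf and Klf4 were lower. The largest rise was that of Klf6, 1.62-fold with tumoral and 1.60-fold with recombinant IFNβ, and the largest fall that of Klf4, to 0.452 and 0.419 of its level without IFNβ. Spi1, Cebpb and Klf2 were not called in either comparison. A gene was called at an adjusted p of 0.05 or lower (edgeR quasi-likelihood test over all 12 libraries, Benjamini-Hochberg adjustment over 15033 genes). Of all tested genes, 55.1% were called for tumoral IFNβ, 30.1% higher and 25% lower, and 55.3% for recombinant IFNβ, 30.7% higher and 24.6% lower. The 6 of 9 members called are near this background, so the count does not set the factors apart from other genes. Only Klf4 also passed an absolute log2 fold change of 1, against 15.4% and 16% of genes in the 2 comparisons, and no member passed the study's thresholds of 2 with an adjusted p of 0.01, which 5.39% and 5.77% of genes passed. The compared libraries did not overlap for 6 members with tumoral IFNβ, against 59% of genes, and for 7 members, Spi1 added, with recombinant IFNβ, against 66.1%. In the 6 called factors every library with IFNβ lay on 1 side of every library without it. How many of all tested genes separated in this way was not counted, so this separation does not set the factors apart from other genes.

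**Figure D1:**
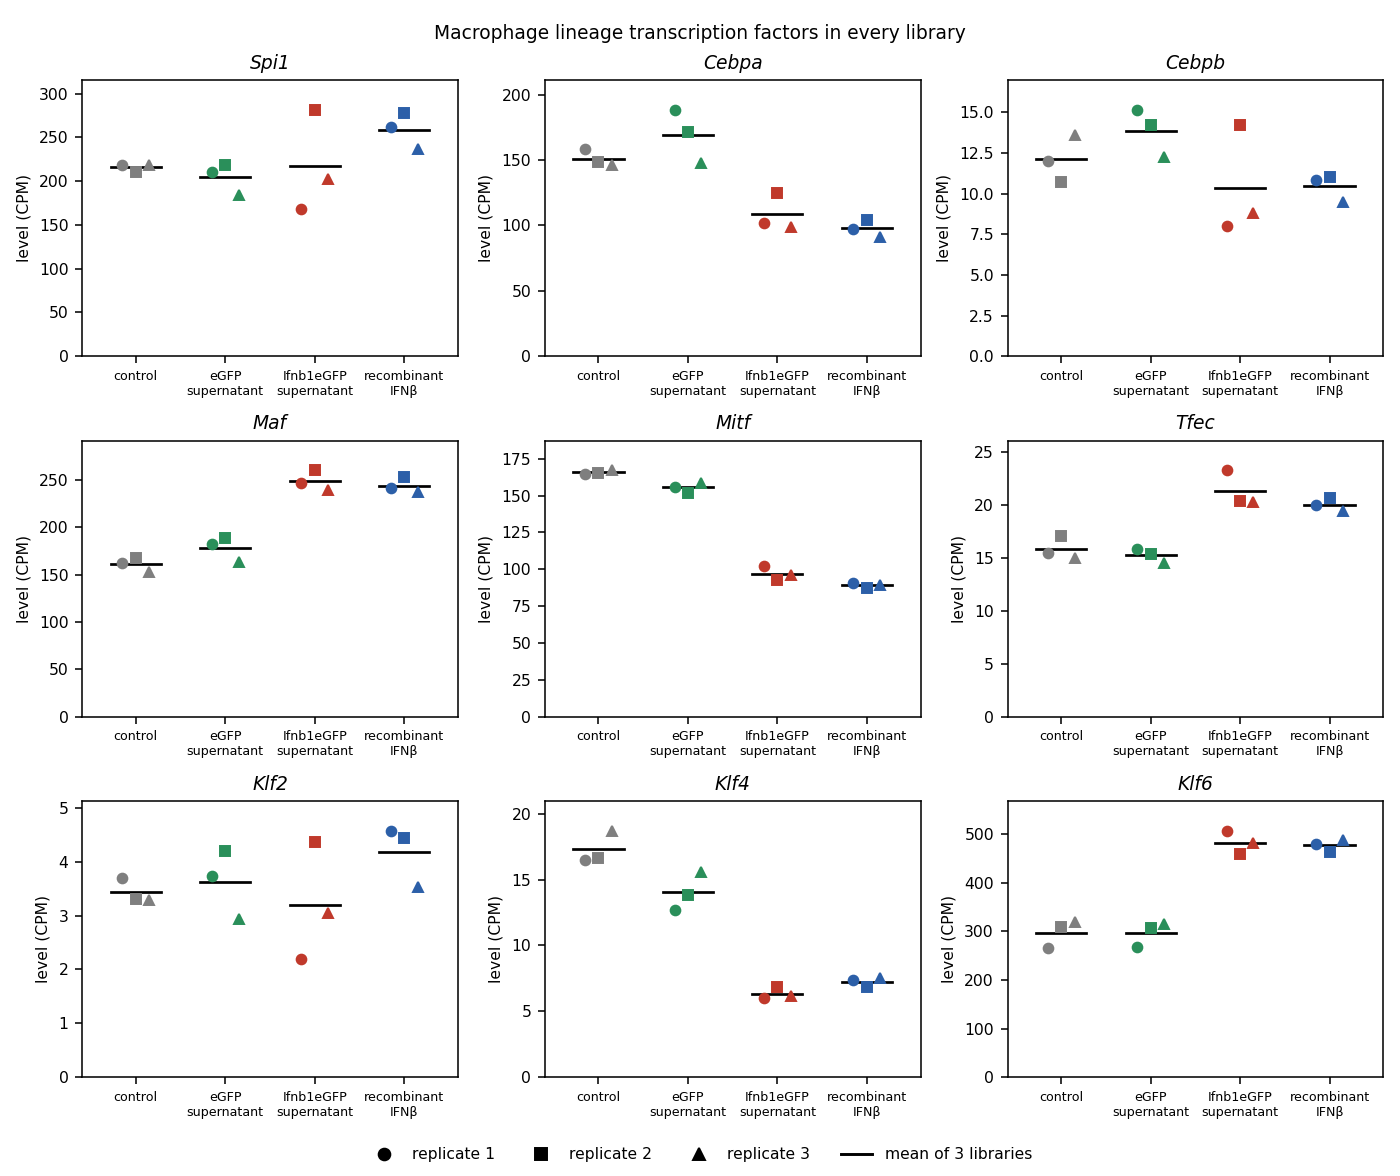
The level of each factor in CPM (linear axis from 0) in all 12 libraries, by condition, with a bar at the mean of 3 libraries and the replicate number as the symbol. Maf, Tfec and Klf6 sit higher and Cebpa, Mitf and Klf4 lower in all 6 libraries with IFNβ, while Spi1, Cebpb and Klf2 overlap and spread most in the Ifnb1eGFP libraries.

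Spi1 (chromosome 2, 90912562 to 90946101, plus strand, GRCm39; 8 transcripts) was among the most highly expressed factors. Its level was 219, 211 and 218 CPM in control replicates 1 to 3, and 210, 218 and 184 CPM with eGFP supernatant. It was 169, 281 and 202 CPM with Ifnb1eGFP supernatant, and 262, 278 and 236 CPM with recombinant IFNβ. The Ifnb1eGFP libraries lay on both sides of the eGFP libraries, whereas the recombinant IFNβ libraries lay above all controls. The log2 fold change was 0.09 ± 0.15 (SE) for tumoral IFNβ (edgeR adjusted p = 0.629) and 0.26 ± 0.15 for recombinant IFNβ (edgeR adjusted p = 0.158). Spi1 is GC-rich (58.1% of exon bases, percentile 91.7 of tested genes), and its call differed between settings. With each library's GC and length trend removed it was called higher in both comparisons, by 0.31 and 0.32 (adjusted p = 0.00069 and 0.00055). It was also called for recombinant IFNβ when only the compared libraries were fitted (0.23, adjusted p = 0.0063), and without Ifnb1eGFP replicate 2 its tumoral IFNβ value was -0.14 (adjusted p = 0.24).

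Cebpa (chromosome 7, 34818718 to 34821353, plus strand), the C/EBP factor that directs progenitors to the myeloid fate, fell with IFNβ. Its level was 159, 148 and 146 CPM in the controls and 188, 171 and 148 CPM with eGFP supernatant. With Ifnb1eGFP supernatant it was 102, 125 and 98.9 CPM, and with recombinant IFNβ 97.6, 104 and 91.4 CPM. No library with IFNβ reached the lowest library without it. Cebpa changed by -0.64 ± 0.10 and -0.63 ± 0.10 log2 units for tumoral and recombinant IFNβ (edgeR adjusted p = 0.000235 and 0.000271). Cebpa has 61.2% GC (percentile 98), and with the GC and length trend removed the tumoral IFNβ change was -0.22 and no longer called (adjusted p = 0.099), while the recombinant change was -0.48 (adjusted p = 0.0024).

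Cebpb (chromosome 2, 167530835 to 167532338, plus strand), the C/EBP factor of activated macrophages, was read at 12, 10.7 and 13.6 CPM in the controls and at 15.2, 14.2 and 12.2 CPM with eGFP supernatant. It stood at 8.04, 14.3 and 8.84 CPM with Ifnb1eGFP supernatant and at 10.9, 11 and 9.5 CPM with recombinant IFNβ. Replicate 2 of the Ifnb1eGFP libraries was as high as the eGFP libraries, and the other 2 were lower than all of them. Its log2 fold changes of -0.42 ± 0.19 and -0.21 ± 0.19 were not called (edgeR adjusted p = 0.0756 and 0.363). Cebpb was the most GC-rich member (67.2%, percentile 99.5), and its tumoral IFNβ value ran from -0.71 without Ifnb1eGFP replicate 2, where it was called (adjusted p = 0.00045), to 0.25 with the GC and length trend removed (adjusted p = 0.145). It was also called with DESeq2 (-0.46, adjusted p = 0.025), with median-of-ratios size factors in edgeR (-0.46, adjusted p = 0.041) and with no low-count filter (-0.44, adjusted p = 0.032). Its single exon shares 312 bases with the opposite-strand gene Peds1, at a mean of 299 CPM in the controls, and since the strand setting of the counting is not given in the sources used here, reads of the shared bases may not be told apart. Peds1 was itself lower with tumoral and recombinant IFNβ (-0.35 and -0.34 log2 units, edgeR adjusted p = 0.0103 and 0.0133). It spread from 186 to 262 CPM in the Ifnb1eGFP libraries. The part of Peds1 reads in the Cebpb values was not tested.

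Maf (chromosome 8, 116409632 to 116434579, minus strand) was higher with IFNβ. It stood at 162, 168 and 152 CPM in the controls and at 182, 189 and 164 CPM with eGFP supernatant. It rose to 247, 260 and 240 CPM with Ifnb1eGFP supernatant and to 242, 253 and 237 CPM with recombinant IFNβ. Every library with IFNβ exceeded every library without it, and the spread within each condition was small against that step. In log2 units the rise was 0.48 ± 0.06 and 0.60 ± 0.06 (edgeR adjusted p = 3.7e-05 and 5.6e-06), and 0.58 and 0.66 with the GC and length trend removed. An opposite-strand noncoding gene, Gm15655, shares 440 exon bases with Maf and was read at means of 5.93 to 6.49 CPM without IFNβ and 9.2 to 10.5 CPM with it.

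Mitf (chromosome 6, 97783950 to 97998323, plus strand; 18 transcripts), the MiT/TFE factor required for osteoclasts, mast cells and melanocytes, had the smallest standard error of the factors. Its level was 165, 165 and 167 CPM in the controls and 156, 152 and 158 CPM with eGFP supernatant. It fell to 102, 92.4 and 96.1 CPM with Ifnb1eGFP supernatant and to 90.6, 87.3 and 89.4 CPM with recombinant IFNβ. Every library with IFNβ lay below every library without it, and the replicates of each condition lay close together. The log2 fold changes were -0.68 ± 0.04 and -0.89 ± 0.04 (edgeR adjusted p = 1.14e-07 and 1.16e-08), and -0.89 and -1.06 with the GC and length trend removed. The melanoma markers above were near 0 in all libraries and the osteoclast markers fell in the same libraries as Mitf. Ctsk, Acp5 and Oscar are both osteoclast markers and listed MiT/TFE targets, so these lists are not separate.

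Tfec (chromosome 6, 16833372 to 16898440, minus strand), a MiT/TFE member expressed mainly in macrophages, moved the other way to Mitf. It was read at 15.4, 17.1 and 15 CPM in the controls and 15.9, 15.4 and 14.5 CPM with eGFP supernatant. With Ifnb1eGFP supernatant it was 23.2, 20.4 and 20.2 CPM, and with recombinant IFNβ 20, 20.6 and 19.4 CPM. All 6 libraries with IFNβ were above the highest without it, 17.1 CPM. For tumoral and recombinant IFNβ the log2 fold change was 0.48 ± 0.07 and 0.34 ± 0.07 (edgeR adjusted p = 0.00015 and 0.00196). Tfec has the lowest GC content of the factors (41.5%, percentile 8.26), and with the GC and length trend removed its change was 0.17 for tumoral IFNβ (adjusted p = 0.0288) and 0.05, no longer called, for recombinant IFNβ (adjusted p = 0.544).

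Among the KLF members, Klf4 and Klf6 moved in opposite directions. Klf4 (chromosome 4, 55527139 to 55532528, minus strand), a factor induced by IL-4, stood at 16.5, 16.7 and 18.7 CPM in the controls and at 12.7, 13.8 and 15.6 CPM with eGFP supernatant. It was 6.02, 6.85 and 6.17 CPM with Ifnb1eGFP supernatant and 7.42, 6.84 and 7.5 CPM with recombinant IFNβ. The highest library with IFNβ stood below the lowest without it. The log2 fold changes were -1.15 ± 0.09 and -1.25 ± 0.09 (edgeR adjusted p = 8.47e-07 and 3.42e-07), and -1.0 and -1.24 with the GC and length trend removed.

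Klf6 (chromosome 13, 5911481 to 5920393, plus strand), a widely expressed KLF linked to inflammatory macrophage genes, had the highest CPM of the members. It was read at 266, 309 and 319 CPM in the controls and 268, 308 and 316 CPM with eGFP supernatant. With Ifnb1eGFP supernatant it was 507, 459 and 483 CPM and with recombinant IFNβ 479, 464 and 488 CPM. Its log2 fold changes of 0.70 ± 0.08 and 0.68 ± 0.08 (edgeR adjusted p = 1.44e-05 and 1.73e-05) shrank to 0.40 and 0.38 with the GC and length trend removed and stayed called (adjusted p = 0.00024 and 0.00034). Its GC content was 43.2% (percentile 14.1).

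Klf2 (chromosome 8, 73072726 to 73075502, plus strand), a factor that restrains inflammatory activation, was the lowest of the members. It was read at 3.69, 3.31 and 3.29 CPM in the controls and 3.74, 4.19 and 2.94 CPM with eGFP supernatant. It was 2.2, 4.37 and 3.04 CPM with Ifnb1eGFP supernatant and 4.57, 4.43 and 3.54 CPM with recombinant IFNβ. The conditions overlapped. The log2 fold changes of -0.18 ± 0.22 and 0.29 ± 0.22 were not called (edgeR adjusted p = 0.521 and 0.296). Klf2 is GC-rich (61.9%, percentile 98.4), and with the GC and length trend removed it was called higher with recombinant IFNβ (0.47, adjusted p = 0.003).

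**Figure D2:**
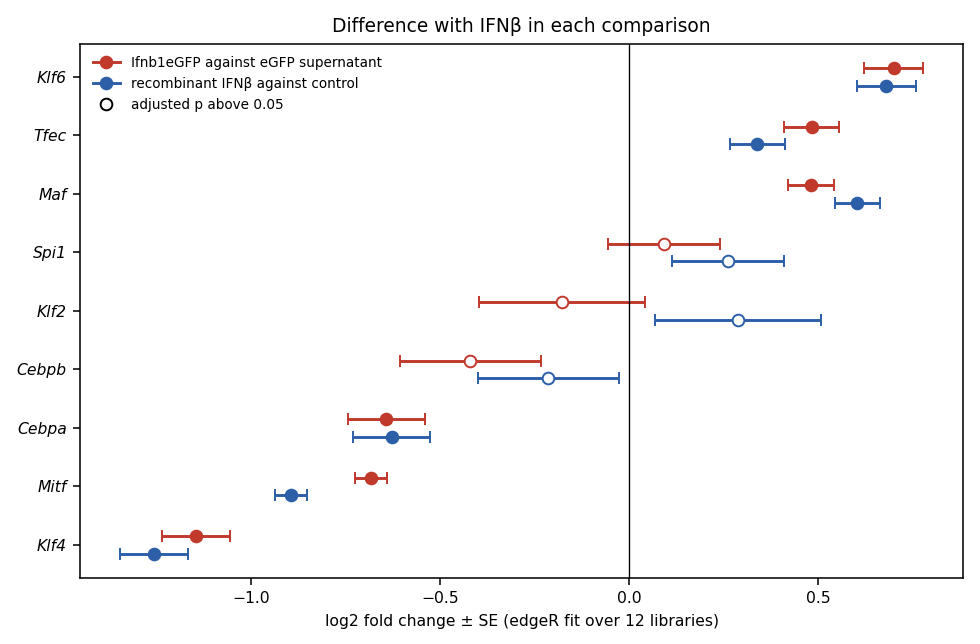
The log2 fold change ± SE of each factor (edgeR fit over 12 libraries) for Ifnb1eGFP against eGFP supernatant and for recombinant IFNβ against control, with open symbols where the adjusted p was above 0.05. The 6 called factors lie on the same side of 0 in both comparisons, from Klf4 at -1.15 and -1.25 to Klf6 at 0.70 and 0.68.

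The upstream sequences of Klf4 and Klf6 are shown because they carry the E-box CACGTG, the letters that MiT/TFE factors bind, in genes that moved in opposite directions, and part of the Isg15 promoter because it carries the ISRE that the members' promoters lack in this window. They were taken from the RefSeq promoter table for GRCm38.p6, which holds 9 promoters of 7 members and none of Spi1 and Maf. The 250 bases before each start were searched on both strands for the ISRE (GAAA repeated after any 2 bases), the E-box (CACGTG) and a PU box (GAGGAA). Matches of different motifs were allowed to overlap, and no sequence printed here held more than 1 of the 3. Of 32851 promoters of the same length, 2.98% held the ISRE letters, 6.02% the E-box and 23.3% the PU box. The E-box lay once in Klf4, from base -182, and once in Klf6, from base -43, and the other 2 motifs were found in none of the 9 promoters. The Isg15 sequence holds 3 overlapping ISRE matches, from bases -78, -72 and -66. The Klf4 stretch is chr4:55532529-55532725 (minus strand), the Klf6 stretch chr13:5861239-5861488 (plus strand) and the Isg15 stretch chr4:156200847-156200966 (minus strand), and capitals mark the motif. Each ended before the first longer run of bases shared with an annotated transcript of the gene. A transcript that starts within the last few bases of the window would not be seen. A match is a description of these letters and not a binding site.
Klf4 upstream, E-box in capitals: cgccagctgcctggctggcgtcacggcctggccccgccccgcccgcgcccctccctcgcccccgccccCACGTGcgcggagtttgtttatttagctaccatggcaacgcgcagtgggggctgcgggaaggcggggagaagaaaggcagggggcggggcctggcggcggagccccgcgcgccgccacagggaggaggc
Klf6 upstream, E-box in capitals: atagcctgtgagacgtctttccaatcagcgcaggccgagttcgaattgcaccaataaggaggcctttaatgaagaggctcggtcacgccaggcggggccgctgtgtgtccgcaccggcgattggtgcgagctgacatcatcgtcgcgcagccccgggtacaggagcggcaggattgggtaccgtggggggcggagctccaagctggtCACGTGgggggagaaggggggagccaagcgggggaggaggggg
Isg15 upstream, ISRE in capitals: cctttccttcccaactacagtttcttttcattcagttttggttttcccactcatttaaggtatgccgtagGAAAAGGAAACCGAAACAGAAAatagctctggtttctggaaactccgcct

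The 2 sources of IFNβ were compared directly and through the difference of their changes. No member was called between Ifnb1eGFP supernatant and recombinant IFNβ, where 0.16% of genes were called (24 genes, and 1288 genes or 8.57% at an unadjusted p under 0.05), and none for the interaction, which called 0 genes with edgeR (661 genes or 4.4% at an unadjusted p under 0.05, and 9 genes with DESeq2). DESeq2 also called no member in either. Mitf was the only member with an unadjusted p under 0.05 in either, and its change was 0.21 ± 0.06 log2 units weaker with tumoral IFNβ (interaction, unadjusted p = 0.00423, edgeR adjusted p = 0.926), with all 3 Ifnb1eGFP libraries above all 3 recombinant IFNβ libraries (0.12 ± 0.04, edgeR adjusted p = 0.521). Groups did not overlap for 1 member in this comparison, against 12.8% of genes. Same-numbered libraries of these 2 conditions deviated together in all 3 pairs, and a fit that took the replicate number as a block called 48 genes and no member. Without Ifnb1eGFP replicate 2 the calls between the sources numbered 1051 genes, Spi1 among them (-0.48, adjusted p = 0.0322), and 1 member was called, whereas leaving out any other library of the 2 conditions gave 4 to 23 genes and 0 members.

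The eGFP supernatant was compared with control medium to read the difference made by supernatant without the Ifnb1 vector. Tumor cell products and doxycycline carried over in the supernatant cannot be told apart in this comparison. No member was called, against 0.299% of genes (45 genes, and 1203 genes or 8% at an unadjusted p under 0.05). DESeq2 called no member either, and Klf4 and Maf were the members with an unadjusted p under 0.05. Klf4 stood at -0.30 ± 0.09 log2 units with all 3 eGFP libraries below all controls (unadjusted p = 0.00511, edgeR adjusted p = 0.276), and Maf at 0.15 ± 0.06 (unadjusted p = 0.0297, edgeR adjusted p = 0.547). Besides Klf4, Mitf was the member whose groups did not overlap (-0.09 ± 0.04, edgeR adjusted p = 0.624), 2 members against 15.5% of genes. Leaving out any 1 library of the 2 conditions gave 16 to 32 called genes and again no member. Without eGFP replicate 2, the library with raised Irf7, the tumoral IFNβ log2 fold changes of the called members were -0.63 for Cebpa, 0.52 for Maf, -0.70 for Mitf, 0.49 for Tfec, -1.16 for Klf4 and 0.72 for Klf6, all called.

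**Figure D3:**
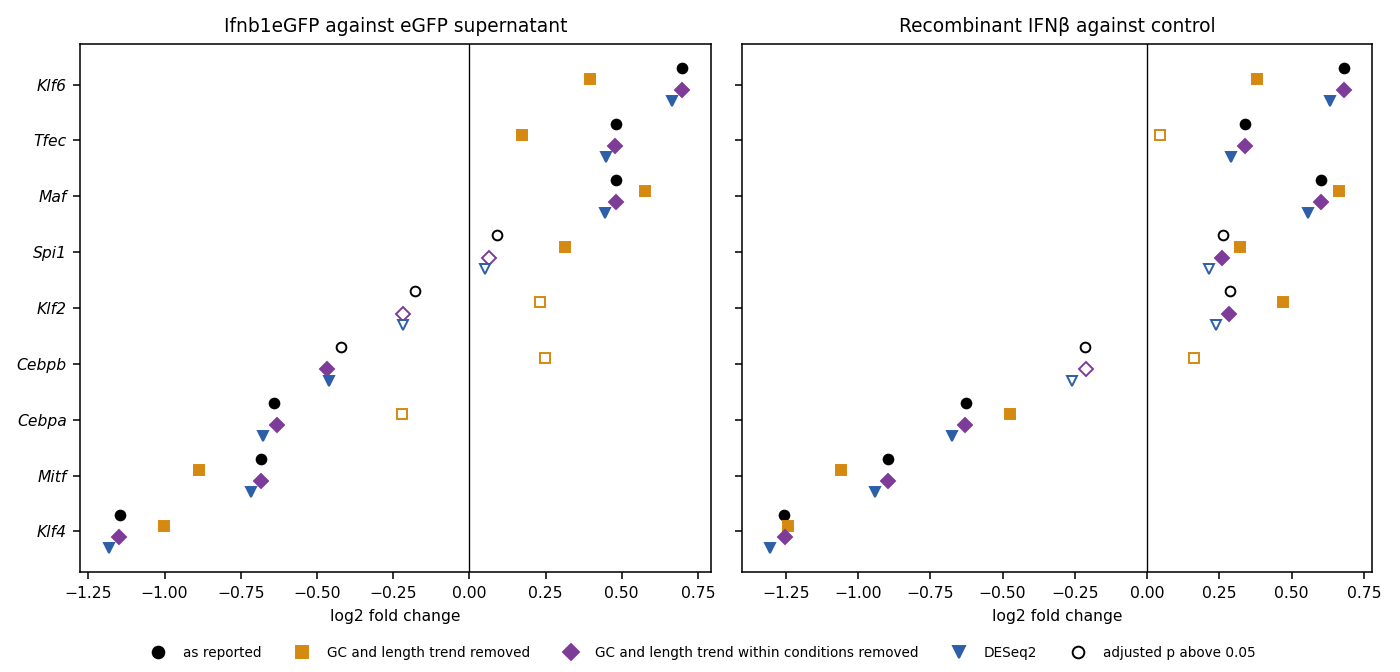
The log2 fold change of each factor as reported, with the GC and length trend of each library removed (relative to the mean of all libraries, or within its own condition) and with DESeq2, in the tumoral IFNβ (left) and recombinant IFNβ (right) comparisons; open symbols have an adjusted p above 0.05. With the trend removed relative to all libraries, Mitf moves from -0.68 to -0.89, Klf6 from 0.70 to 0.40, Cebpa from -0.64 to -0.22, no longer called, and Cebpb from -0.42 to 0.25 on the left, and Tfec from 0.34 to 0.05, no longer called, on the right.

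Removing the trend relative to all libraries also removes any trend with GC content that differs between conditions, whereas removing it within conditions does not. Over 15 alternatives, Maf, Mitf, Klf4 and Klf6 were called in each of the 2 IFNβ comparisons under every one, Cebpa under 14 for tumoral and 15 for recombinant IFNβ, and Tfec under 15 and 13. With the trend removed within conditions the 6 called members kept their values, from -1.15 for Klf4 to 0.70 for Klf6 for tumoral IFNβ, and Cebpb was called lower with tumoral IFNβ (-0.47, adjusted p = 0.0124) and Spi1 and Klf2 higher with recombinant IFNβ (0.26 and 0.28, adjusted p = 0.0025 and 0.0441).

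Levels of different genes were compared as CPM per kb of exon. In the controls the order was Spi1 (71.5), Klf6 (66.7), Cebpa (57.3), Maf (17.3), Mitf (16.3), Cebpb (8.05), Klf4 (5.49), Tfec (2.83) and Klf2 (1.6), where Spi1, Klf6 and Cebpa overlapped with their neighbours, as did Maf and Mitf. With recombinant IFNβ it was Klf6 (107), Spi1 (85.7), Cebpa (37.1), Maf (26.3), Mitf (8.78), Cebpb (6.95), Tfec (3.57), Klf4 (2.3) and Klf2 (1.96), and no neighbours overlapped. The eGFP order matched the control order and the Ifnb1eGFP order matched the recombinant one. With eGFP supernatant Spi1, Klf6 and Cebpa overlapped, and with Ifnb1eGFP supernatant Mitf and Cebpb as well as Klf4 and Klf2 did. Per kb of exon, every library had Tfec below Klf4 without IFNβ and above it with IFNβ. Per kb of the longest transcript the same held in the controls and with IFNβ, whereas with eGFP supernatant Tfec (4.27 to 4.69) and Klf4 (4.12 to 5.04) overlapped. Dividing by the longest transcript instead of all exons exchanged Maf and Mitf without IFNβ and, with recombinant IFNβ, Spi1 and Klf6 as well as Maf and Cebpa, and left the Ifnb1eGFP order as it was.

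Shares of the C/EBP, MiT/TFE and KLF families' summed CPM per kb of exon are given as the mean ± SD over 6 libraries without and 6 with IFNβ. Cebpa took 66.2% ± 1.4 of 7 C/EBP-related genes without IFNβ and 44% ± 2.6 with it, while Ddit3, which encodes the stress-induced C/EBP relative CHOP, took 4.64% ± 0.66 and 29.6% ± 3. The 7 genes include Cebpz, grouped by name and not by factor type, at 8.04% ± 0.8 without IFNβ and 8.2% ± 0.84 with it. Cebpb went from 9.4% ± 0.75 to 7.74% ± 1. Mitf took 39% ± 0.96 of the 4 MiT/TFE genes without IFNβ and 27.8% ± 3 with it, Tfec 6.84% ± 0.35 and 11.2% ± 1.3, and Tfe3 41.6% ± 0.55 and 49.4% ± 1.7. Cebpa and Klf6 had the largest share of their families without and with IFNβ, and Mitf came after Tfe3 in both, although with the longest transcript as length Mitf came before Tfe3 without IFNβ (44.4% against 34.2%) and after it with IFNβ (32.8% against 42%). Klf6 went from 54.6% ± 2.3 to 68.4% ± 1 of 17 KLF genes, Klf4 from 4.08% ± 0.5 to 1.38% ± 0.14, and Klf2 from 1.36% ± 0.2 to 1.11% ± 0.3. The libraries with and without IFNβ did not overlap in the exon-based shares of Cebpa, Mitf, Tfec, Klf4 and Klf6 and overlapped for Cebpb and Klf2. These shares restate the levels above and are not a separate measure. Within a family a larger share of 1 gene, such as Ddit3, leaves less for the others together.

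**Figure D4:**
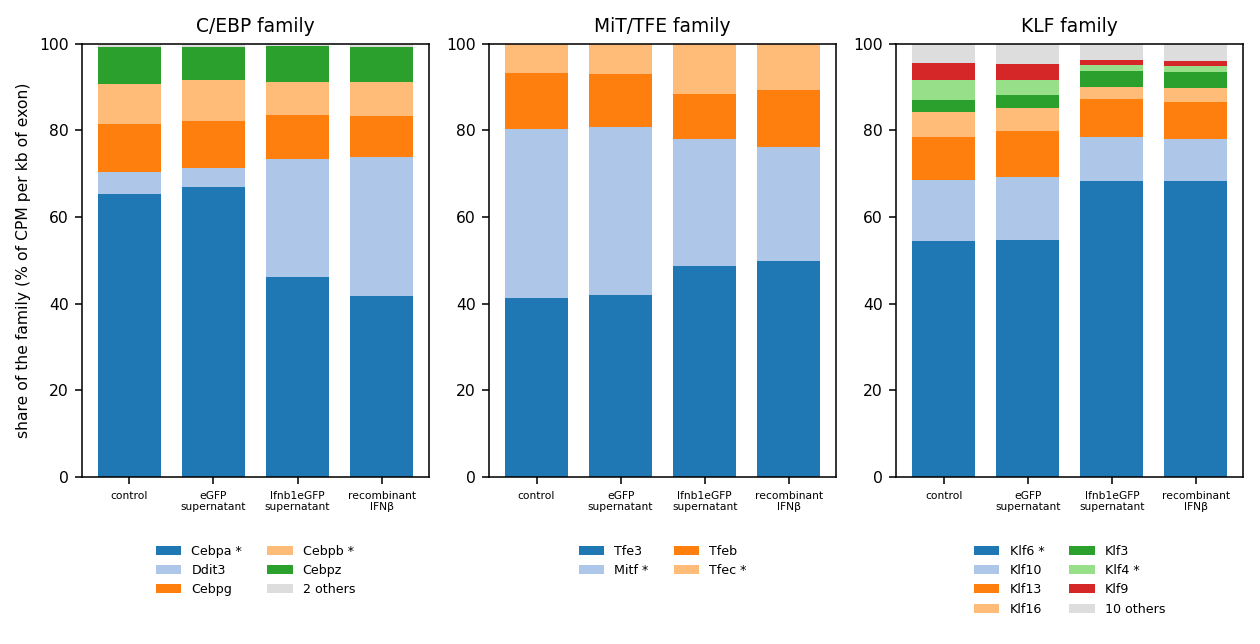
Stacked bars of each gene's share, in percent, of its family's summed CPM per kb of exon, as the mean of 3 libraries in each condition, for the C/EBP, MiT/TFE and KLF families; an asterisk marks a member and grey the genes that never reach 2%. Cebpa and Mitf narrow and Klf6 widens in both conditions with IFNβ, where Ddit3 expands to 27% and 32.2%.

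Beside the members, 28 of 40 tested related regulators (50 listed) were called for tumoral IFNβ, 12 higher and 16 lower with a median log2 fold change of -0.14, against 55.1% of all tested genes called, 30.1% higher and 25% lower, with a median of 0.03. For recombinant IFNβ 31 were called, 13 higher and 18 lower, with a median of -0.14, against 55.3% of all tested genes, 30.7% higher and 24.6% lower, with a median of 0.04, and no regulator was called between the sources or between the unexposed media. Of 20 tested ETS and other myeloid regulators, 6 were higher and 8 lower with tumoral IFNβ, led by the basic helix-loop-helix factor Bhlhe40 (-2.94 ± 0.09 and -3.13 ± 0.10 for tumoral and recombinant IFNβ), the zinc finger factor Egr2 (-3.16 ± 0.11 and -3.37 ± 0.11) and the ETS factor Elf1 (1.11 ± 0.05 and 1.08 ± 0.05). Egr2 went from 115 to 147 CPM without IFNβ to 12 to 15.9 CPM with it. Of 4 other C/EBP-related genes, Ddit3 was higher (2.58 ± 0.11 and 2.68 ± 0.11) and Cebpg lower (-0.20 ± 0.08, edgeR adjusted p = 0.0478, and -0.24 ± 0.08). The call of Cebpg was lost for tumoral IFNβ without eGFP replicate 1 or 2 or Ifnb1eGFP replicate 2 or 3 (-0.13 to -0.22) and with only the compared conditions fitted (-0.20, adjusted p = 0.0902), and for recombinant IFNβ without control replicate 1 or recombinant IFNβ replicate 3 (-0.20 for both). Among the other MAF genes described here, Mafk, Maff and Mafg encode small MAF proteins without an activation domain, and they moved in both directions. Mafk was higher (0.61 ± 0.16 and 0.79 ± 0.16). Those lower with IFNβ were Maff (-1.74 ± 0.17 and -2.03 ± 0.18), Mafg (-0.47 ± 0.08 and -0.35 ± 0.08) and Mafa (-2.75 ± 0.34 and -3.36 ± 0.34), which never exceeded 1.08 CPM. Neither Tfeb nor Tfe3 was called. Of 9 other tested KLF genes, 3 were higher and 4 lower with tumoral IFNβ, with Klf9 at -1.30 ± 0.05 and -1.49 ± 0.05, Klf3 at 0.73 ± 0.05 and 0.76 ± 0.05 and Klf11 at 0.73 ± 0.09 and 0.79 ± 0.09.

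Genes known as targets of the factors moved in both directions. The target lists were chosen with earlier results of these data known, so their counts are a description. Of 32 tested (33 listed), 14 were higher and 9 lower with tumoral IFNβ, and 14 and 10 with recombinant IFNβ, with medians of 0.12 and 0.13. Of all tested genes, 30.1% were higher and 25% lower with tumoral IFNβ and 30.7% and 24.6% with recombinant IFNβ, with medians of 0.03 and 0.04. All 5 listed MAF targets were higher, with Il10, the anti-inflammatory cytokine, at 3.63 ± 0.16 and 3.69 ± 0.16 (0.45 to 0.79 CPM without IFNβ and 6.6 to 8.11 CPM with it), and the complement genes C1qa (1.32 ± 0.22 and 1.92 ± 0.23) and C1qb (0.95 ± 0.13 and 1.32 ± 0.13). Of 8 PU.1 and C/EBP targets, 3 were higher and 4 lower: Itgam, the CD11b integrin chain, fell by 1.99 and 2.17 log2 units, Lyz2, lysozyme, by 1.59 and 1.44, and Csf3r, the G-CSF receptor, rose by 0.95 and 1.17, whereas Csf1r, the M-CSF receptor, differed by 0.04 ± 0.04 and 0.10 ± 0.04 and was not called. Of 13 tested MiT/TFE targets, 4 were higher and 5 lower with tumoral IFNβ. The osteoclast protease gene Ctsk (-1.80 ± 0.13 and -1.72 ± 0.13) and Gpnmb (-0.91 ± 0.07 and -0.76 ± 0.07) were lower, and the autophagy receptor gene Sqstm1 was higher (0.70 ± 0.06 and 0.78 ± 0.06). Of 6 KLF targets, 2 were higher and none lower: Thbd, thrombomodulin (0.98 ± 0.14 and 1.03 ± 0.14), and Chil3, a marker of IL-4 activation (0.77 ± 0.09 and 0.67 ± 0.09), while Arg1, Retnla and Mrc1, which mark IL-4 activation or the resident macrophage surface, and S1pr1 were not called.

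**Figure D5:**
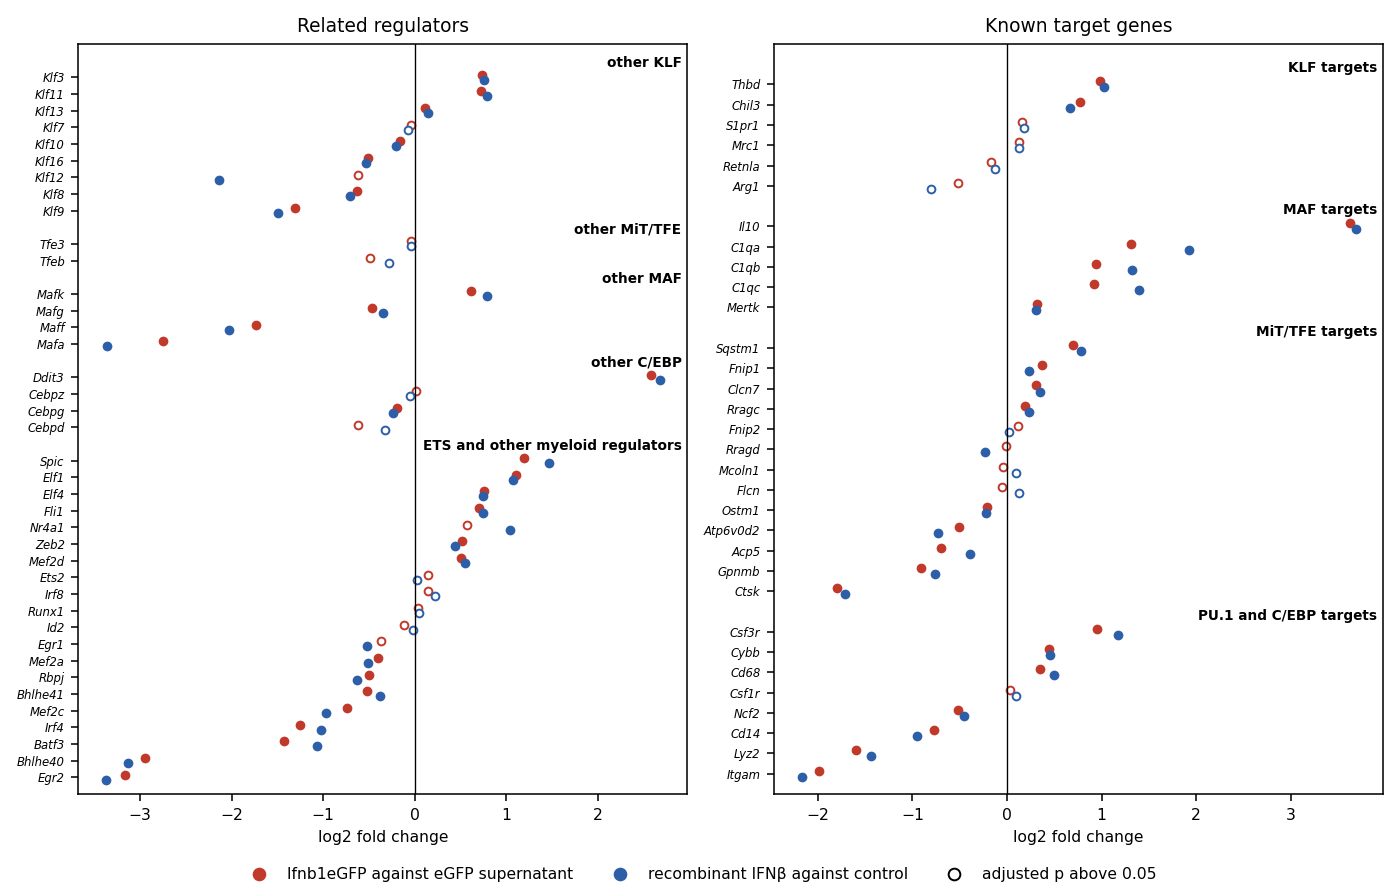
The log2 fold change (edgeR) of tested related regulators (left) and known target genes (right) in the tumoral and recombinant IFNβ comparisons, grouped by list, with open symbols where the adjusted p was above 0.05. Egr2 and Bhlhe40 fall furthest on the left, near -3, and Il10 rises furthest on the right, to 3.63 and 3.69.

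Only 1 listed target was called between the sources, Itgam, which was 0.34 ± 0.04 log2 units higher with Ifnb1eGFP supernatant (397 to 426 CPM against 317 to 330 CPM, edgeR adjusted p = 0.0078). This call was lost without Ifnb1eGFP replicate 3 or recombinant IFNβ replicate 1 or 2 (0.31 to 0.34, adjusted p = 0.0506 to 0.0716), and with only the compared conditions fitted (0.35, adjusted p = 0.19). Lyz2 was the target called between the unexposed media, 0.40 ± 0.05 higher with eGFP supernatant (12092 to 12828 CPM against 8807 to 9720 CPM, edgeR adjusted p = 0.0075), and this call was lost with only the compared conditions fitted (0.40, adjusted p = 0.0566).

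The genes closest to each member across the 12 libraries, by Pearson correlation of log2 CPM over 15032 other genes, are given as a description, since all share the same libraries and the step with IFNβ. Mitf was closest to Alcam and Esd (r = 0.998 for both), Maf to Rragc (0.994) and Pde7b (0.993), Klf4 to S100a6 and Tafa3 (0.993 for both) and Klf6 to Dnajc9 and Atg16l1 (0.993 for both). Spi1 was closest to Tle5 (0.989) and Trim8 (0.982), Tfec to Pigg (0.983) and Fbxw11 (0.982), Cebpa to Rilpl1 (0.98) and Ifngr2 (0.978), Klf2 to Kifc3 (0.969) and Mogs (0.961), and Cebpb to Hexim1 (0.957) and Usf2 (0.953). Among the members, Maf and Klf4 were the most opposed pair (r = -0.98), Mitf and Klf4 the most alike (0.957), and Spi1 and Klf2, both GC-rich and not called, were correlated at 0.895.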

How the data were processed

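Total RNA of M2-like BMDM was isolated with on-column DNase digestion and made into libraries with a stranded total RNA kit. The authors aligned and counted reads with RSEM 1.3.3 against a reference named with both GRCm39 and mm10 and deposited 1 matrix of unnormalized expected counts per Ensembl gene, in which 12% of values were not whole, and the annotation version and strand setting are not given in the sources used here. Estimated counts were rounded, and no column of the matrix was unused. Gene positions, exon lengths and GC content came from GENCODE M39 (GRCm39). The 4 conditions of 3 libraries were taken from the labels, and 12 replicate pairs of a condition differed by more than counting error (chi-square of 5.34 to 54 per degree of freedom).

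Genes were filtered with filterByExpr and fitted in 1 model over 12 libraries with TMM factors and edgeR 4.0.16 (R 4.3.3) quasi-likelihood tests. SE is the absolute log2 fold change over the root of F. CPM are per 1000000 counts, with TMM factors. Python 3.11.15 and pandas 2.3.3 made the summaries. The fit was run on simulated counts in which few genes changed, as many up as down. These counts held no GC trend and no shared deviation of same-numbered libraries, so the run does not cover those features of the data. The sources name 3 mice per condition but not what the replicate number stands for. Same-numbered libraries deviated together in 13 of 18 pairs (r over 0.1), not in all, so no block was used in the main fit. Still, r was positive in all 18 pairs (0.058 to 0.252, mean 0.148) and over 0.1 in 1 of 36 differently numbered pairs. What same-numbered libraries share was not tested. The blocked count is printed for Ifnb1eGFP supernatant against recombinant IFNβ, where r was over 0.1 in all 3 pairs. Other blocked counts are given in the last section. P-values measure the spread between these libraries.

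Alternatives were DESeq2 1.42.0, median-of-ratios (RLE) factors, no low-count filter, a replicate block, only the compared conditions, each library left out, stricter thresholds, the longest transcript as length and, added after the data were seen, removal of each library's trend of log2 CPM (prior count 2) on GC content and exon length (splines, 5 degrees of freedom) relative to all libraries or within its condition, also with the block. Named were all members and, of each related or target list, up to 3 called genes with the smallest adjusted p for tumoral IFNβ plus any gene called between the sources, between the unexposed media or for the interaction, the 2 genes nearest each member, overlapping genes, markers and Irf7, Isg15 and Ifit2. Mafk, Tfe3, Tfeb, Cebpz, Csf1r, Cd14, Mertk, Arg1, Retnla, Mrc1 and S1pr1 were named after their values were seen. The members and lists were chosen with earlier results of these data known. Ddit3 has 2 rows in the matrix, and the one with more counts was used. One listed gene and the share of Maf within its family are not reported here, although the counts over the related regulators include that gene.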

Additional observations from a re-analysis of the deposited data

How the results depend on the processing

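The members called for tumoral and for recombinant IFNβ numbered 6 in each and 6 to 7 and 6 with 1 library left out. For tumoral IFNβ they were 7 with DESeq2, with RLE factors and with no filter. For recombinant IFNβ they were 7 with the GC and length trend removed and 8 with the trend within conditions removed. They numbered 1 in each with an absolute log2 fold change of 1 and 0 in each with the study's thresholds. Between the 2 IFNβ sources the members called were 0, with 2 when the GC and length trend within conditions was removed, 3 with that and the replicate block, and 0 to 1 with 1 library left out, and for the interaction 1 with the trend within conditions removed and the block. Related regulators called between the sources were 1 with the replicate block, 4 with the trend within conditions removed, 8 with that and the block, and 0 to 4 with 1 library left out, and between the unexposed media 1 with either GC removal and the block. Known targets called between the sources (1 as reported) were 4 with DESeq2, 2 with no filter, 2 with the block, 4 with the GC and length trend removed and the block, 5 with the trend within conditions removed, 10 with that and the block, 0 with only the compared conditions and 0 to 6 with 1 library left out. Between the unexposed media (1 as reported) they were 5, 2, 2, 6, 3, 9 and 0 under the same settings, 2 with RLE factors and 2 with the GC and length trend removed, and for the interaction 1 with the trend within conditions removed and the block. All genes called between the sources (24 as reported) were 115 with DESeq2, 41 with no filter, 48 with the block, 110 with the GC and length trend removed and the block, 554 with the trend within conditions removed, 1321 with that and the block, 2 with only the compared conditions and 4 to 1051 with 1 library left out. Between the unexposed media (45 as reported) they were 204, 75, 122, 342, 102, 395 and 22 under the same settings, 92 with the GC and length trend removed and 16 to 32 with 1 library left out, and for the interaction (0 as reported) 9 with DESeq2, 1 with no filter and 110 with the trend within conditions removed and the block. With the longest transcript as length the shares were 63.2% for Cebpa without IFNβ, 44.4% and 32.8% for Mitf without and with it, 6.3% for Tfec without it and 50.6% and 64% for Klf6. Values that changed sign were called neither as reported nor after. With the GC and length trend removed, without and with the block, Cebpb went to 0.25 and 0.25 for tumoral IFNβ, 0.16 and 0.17 for recombinant IFNβ, 0.38 and 0.37 between the sources and 0.088 and 0.080 for the interaction, Klf2 to 0.23 and 0.24 for tumoral IFNβ, Klf6 to -0.038 and -0.038 between the sources, and Cebpa to 0.25 and 0.25 for the interaction (0.00033 with the trend within conditions removed). With no filter Klf6 went to 0.027 between the unexposed media and -0.0034 for the interaction. With 1 library left out, sign changes were Spi1 for tumoral IFNβ (-0.14 to 0.20), Cebpb (-0.31 to 0.14), Maf (-0.0043 to 0.056) and Klf6 between the sources (-0.015 to 0.053), Tfec (-0.094 to 0.0041), Klf2 (-0.037 to 0.21) and Klf6 (-0.079 to 0.066) between the unexposed media, and Cebpa (-0.13 to 0.072) and Klf6 (-0.049 to 0.097) for the interaction. Of 690 fits of the 22 named list genes, 678 kept direction and call, and the others were those of Cebpg, Itgam and Lyz2. The replicate block on its own changed no call of a member. The causes of these changes were not tested. In the comparisons with and without IFNβ, the members whose call differed between settings were Spi1, Cebpa, Cebpb, Tfec and Klf2.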
